A study of Mus musculus with 6 samples.

Results

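The 59 genes described here lie on mouse chromosome 9 and start between about 55 and 75 Mb in the GRCm38 build. They were taken by their symbols from a stretch that had been picked because its genes were shifted in PME-1 knockout (KO) cells against wild-type (WT) cells. All 59 were found among the 53762 genes in the files, and all 59 were among the 15223 genes with enough reads for the fit. Because the KO against WT shift chose the stretch, that shift is described here without a test. All 59 are protein coding, 31 on the plus strand and 28 on the minus strand, and 3 of them (Islr, Larp6 and Itga11) had a mean under 5 CPM (read counts relative to library size, scaled by TMM factors).

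Neighbouring genes of a mammalian chromosome are as a rule unrelated in function, and the members here range from mitotic motors to collagen receptors. Genes that share a chromosome segment share its number of copies, and the RNA of most genes follows the number of gene copies. Immortalized mouse embryonic fibroblasts often gain or lose chromosomes and parts of them in culture. DNA was not measured in the data used here, so nothing below gives a copy number.

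RNA was sequenced from immortalized MEFs, fibroblasts of mouse embryos, collected 24 hours after seeding in high-glucose medium with serum. The 6 libraries were 3 from WT cells and 3 from PME-1 KO cells, grouped by their titles, since the genotype cells of KO libraries 2 and 3 carry other numbers after PME. PME-1, the product of Ppme1, is the methylesterase of the phosphatase PP2A. The sources used here give neither the way the knockout was made nor the number of clones or embryos behind a group, and nothing says that libraries of a group were separate cultures, so the spread between libraries, on which SDs and p-values rest, may be technical.

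Total counts were between 34450993 and 44116310 per library, where 3 counts equal 0.068 to 0.0871 CPM. Ppme1 was at 78.4, 80.7 and 86.6 CPM in WT and at 18.2, 14.9 and 18.9 CPM in KO, on the side its labels name. Of 10 fibroblast markers, 7 had at least 5 CPM in every library. The sum over all 10 was 16038 to 22042 CPM in WT and 12945 to 15164 in KO. Within that sum single markers went both ways. Dcn (1.05 to 10.0 CPM in WT, 12.5 to 63.2 in KO) and Thy1 (1.03 to 3.47, 4.58 to 9.36) were higher in KO. S100a4 (307 to 509 CPM in WT, 101 to 221 in KO) and Pdgfrb (150 to 251, 78.2 to 106) were lower. Xist was at 369.7 to 490.0 CPM in WT and at most 0.310 in KO, while Ddx3y was at 0 in WT and at 58.4 to 71.8 in KO, so the groups carried the markers of different sexes. They are therefore not described here as 1 line with and without PME-1, and the sex and origin of the cells cannot be told apart from the genotype. Sums of 6 epithelial markers were 2.33 to 2.66 CPM in WT and 59.7 to 115 in KO, mostly Krt18, with Krt5 and Krt14 at 0. Endothelial sums were at most 3.44 and macrophage sums at most 4.94 CPM, with Tie1, Adgre1 and Itgam at 0. Sums of 5 muscle markers, mostly Acta2, were 249 to 741 CPM in WT and 28.6 to 83.6 in KO, with Myod1 at 0. Those of 5 neural markers were 34.1 to 41.2 CPM in WT and 35.5 to 37.2 in KO, with Sox10 at 0. The neural sums hid opposite changes without overlap. Sox2 was at 1.80 to 2.27 CPM in WT and at 12.0 to 15.5 in KO. Map2 was at 21.2 to 24.3 CPM in WT and at 12.5 to 14.6 in KO, and Tubb3 at 10.6 to 15.1 and 7.37 to 10.3. The part of these markers in the shift was not tested, and in such bulk RNA fewer cells of a type and less RNA per cell cannot be told apart. WT 1 and KO 1 stood apart from the other libraries of their groups: chi-square per degree of freedom over genes was 125 to 149 for pairs with either of them, against 13.4 for WT 2 with WT 3 and 13.9 for KO 2 with KO 3. Ratios of KO to WT with and without them are given below for the members where they differ most.

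The stretch did not shift as 1 block. Ordered by start, its 125 genes that averaged 5 CPM or more divided into a short run of higher genes and a long run of lower genes, and the split that left the smallest absolute deviations from a median on either side lay between 1700017B05Rik and Ppcdc (positions here and below are on chromosome 9, from GENCODE M21 on GRCm38). 1700017B05Rik (57253117 to 57262612) had a log2 fold change of 0.03, and Ppcdc (57385095 to 57440124), an enzyme of coenzyme A synthesis, one of -0.63. Their starts are 132 kb apart. The split fell at the same place over the 592 genes of the whole chromosome, and in 16 of 16 alternative scalings, filters, tools and sets of libraries. Commd4, the last member before it, was at 0.31. Behind it came Scamp5 at -1.503, Cox5a at -0.98, Fam219b at -0.94, Mpi at -0.99 and Scamp2, the first member, at -0.82. The 59 members thus divide into 10 before this step and 49 after it. The step was found in these values, so the division is a description as well.

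The promoters of the members were searched for common motifs of promoter elements. RefSeq (GRCm38.p6) gave the promoter of 56 of the 59 members. The 250 bases before the RefSeq start are shown for the members next to the step, Commd4 (chr9:57158300-57158549, minus strand) and Scamp2 (chr9:57560694-57560943, plus strand), and for the members of at least 5 CPM with the highest and the lowest log2 fold change, Imp3 (chr9:56937250-56937499, plus strand) and Adam10 (chr9:70678732-70678981, plus strand). Each runs 5′ to 3′ on the strand of its gene, and capitals mark a match to any motif searched, on either strand.
Commd4: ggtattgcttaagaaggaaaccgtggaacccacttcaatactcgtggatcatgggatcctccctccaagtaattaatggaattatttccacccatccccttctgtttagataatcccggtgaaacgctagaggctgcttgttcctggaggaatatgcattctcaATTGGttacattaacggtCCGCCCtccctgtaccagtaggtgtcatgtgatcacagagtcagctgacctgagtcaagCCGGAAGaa
Scamp2: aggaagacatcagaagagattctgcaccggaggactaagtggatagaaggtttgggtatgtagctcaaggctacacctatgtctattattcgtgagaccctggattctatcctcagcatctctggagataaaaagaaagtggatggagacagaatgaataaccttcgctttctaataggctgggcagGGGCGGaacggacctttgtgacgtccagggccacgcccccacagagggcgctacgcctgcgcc
Imp3: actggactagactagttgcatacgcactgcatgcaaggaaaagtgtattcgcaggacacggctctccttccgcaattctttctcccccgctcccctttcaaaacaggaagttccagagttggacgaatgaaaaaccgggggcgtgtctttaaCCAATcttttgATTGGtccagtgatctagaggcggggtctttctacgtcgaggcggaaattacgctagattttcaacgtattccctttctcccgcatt
Adam10: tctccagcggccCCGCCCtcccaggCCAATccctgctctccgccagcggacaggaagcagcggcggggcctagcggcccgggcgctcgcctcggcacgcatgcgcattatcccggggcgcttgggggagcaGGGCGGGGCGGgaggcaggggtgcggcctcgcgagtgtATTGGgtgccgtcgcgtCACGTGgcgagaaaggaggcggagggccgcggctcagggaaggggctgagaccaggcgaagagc

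The motifs were the GC box (GGGCGG), the ETS motif (CCGGAAG), the CCAAT box (CCAAT), the TATA box (TATAAA) and the E box (CACGTG), each also in reverse complement, and matches may overlap. A GC box was in 41 of 56 member promoters (73.2%), against 60.6% of the 10376 promoters of tested genes. Among the 8198 of these from genes of at least 5 CPM it was in 63.6%. By side it was in 6 of 10 before the step and in 35 of 46 after it. A CCAAT box was in 22 members (39.3%, all promoters 37.1%), 7 of 10 before and 15 of 46 after. The ETS motif was in 7 (12.5%, all 14.3%), and the TATA box and E box in 4 each (7.14%, all 6.17% and 8.31%). Of the promoters shown, that of Adam10 had the highest GC content (74.0%) and that of Commd4 the lowest (47.2%), while the median was 60.8% both over members and over the 8198 promoters of genes of at least 5 CPM. A match describes the letters and is no binding site.

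**Figure D1:**
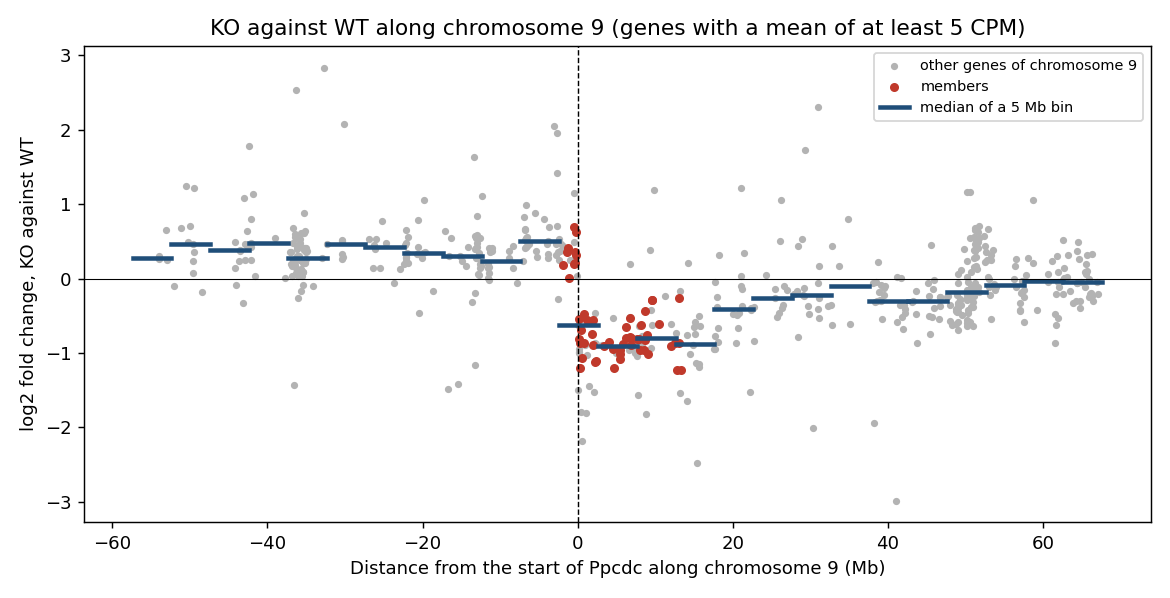
Log2 fold change of KO against WT (y axis) by distance of a gene's start from the start of Ppcdc (x axis, Mb) for the 592 genes of chromosome 9 that averaged 5 CPM or more; red points are members, grey points other genes, and bars the medians of 5 Mb bins. Bins left of the dashed line, apart from the bin it crosses, lie between 0.24 and 0.51, the bins of the lower run between -0.80 and -0.90, and later bins between -0.41 and -0.04.

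Over all 59 members the median log2 fold change was -0.80, a level of 57.3% of WT, and 48 were below 0 (81.4%, against 48.9% of all tested genes). The 3 KO libraries lay wholly below the 3 WT libraries for 40 members, against 15.4% of all tested genes, and wholly above for 5, against 14.6%. The rule used this contrast, so these counts only describe the members. After the step, 40 of 49 were wholly lower and 48 were below 0, with a median of -0.85 (55.3% of WT). Before it, 10 of 10 were above 0 (51.1% of all tested genes were), 5 were wholly higher (Rcn2, Tspan3, Imp3, Sin3a and Man2c1), and the median was 0.33 (126% of WT). Without WT 1 and KO 1, where the same kind of separation held for 37.5% of all tested genes in the lower and 37.1% in the higher direction, 47 of 49 were wholly lower after the step and 7 of 10 wholly higher before it, and 47 of 49 and 2 of 10 had a log2 fold change below 0.

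The lower shift was of much the same size in each KO library. As a median over the 49 members after the step, the level was 53.7% of the WT mean in KO 1, 57.3% in KO 2 and 56.6% in KO 3. The quartiles were 47.2% to 64.1%, 48.5% to 61.8% and 47.3% to 63.8%. The single WT libraries had medians of 94.6%, 101% and 103% of the WT mean. The KO medians lay close together and far from the WT medians. A level under 70% of the WT mean was found for 39, 43 and 44 of the 49 in KO 1 to KO 3, and for 4, 0 and 0 in WT 1 to WT 3. For the 46 of them with at least 5 CPM it was 38, 40 and 41 in KO, and 1, 0 and 0 in WT. Of all 10762 genes of at least 5 CPM, 1653, 1451 and 1508 were under that level in KO, and 980, 205 and 159 in WT. Together these 49 genes took 0.931%, 0.932% and 0.931% of all reads in the WT libraries, and 0.555%, 0.611% and 0.617% in the KO libraries.

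For the 10 members before the step, the KO medians were 135.5%, 122% and 123% of the WT mean, and the WT medians 101.5%, 99.7% and 96.1%. KO 1 thus had the largest shift from the WT mean on either side of the step. Its median over all genes of at least 5 CPM was itself low, however, at 93.2% of the WT mean. In KO 2 and KO 3 that median was 98.5% and 98.2%, and the levels of the members were not corrected for it. The libraries that stood apart, KO 1 over WT 1, gave a median log2 ratio of -0.90 after the step and 0.61 before it. KO 2 and 3 over WT 2 and 3 gave -0.82 and 0.30. KO 1 and WT 1 are not taken as a pair. Their deviations correlated at -0.73, so this ratio, here and below, mixes opposite departures of these libraries with the genotype.

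**Figure D2:**
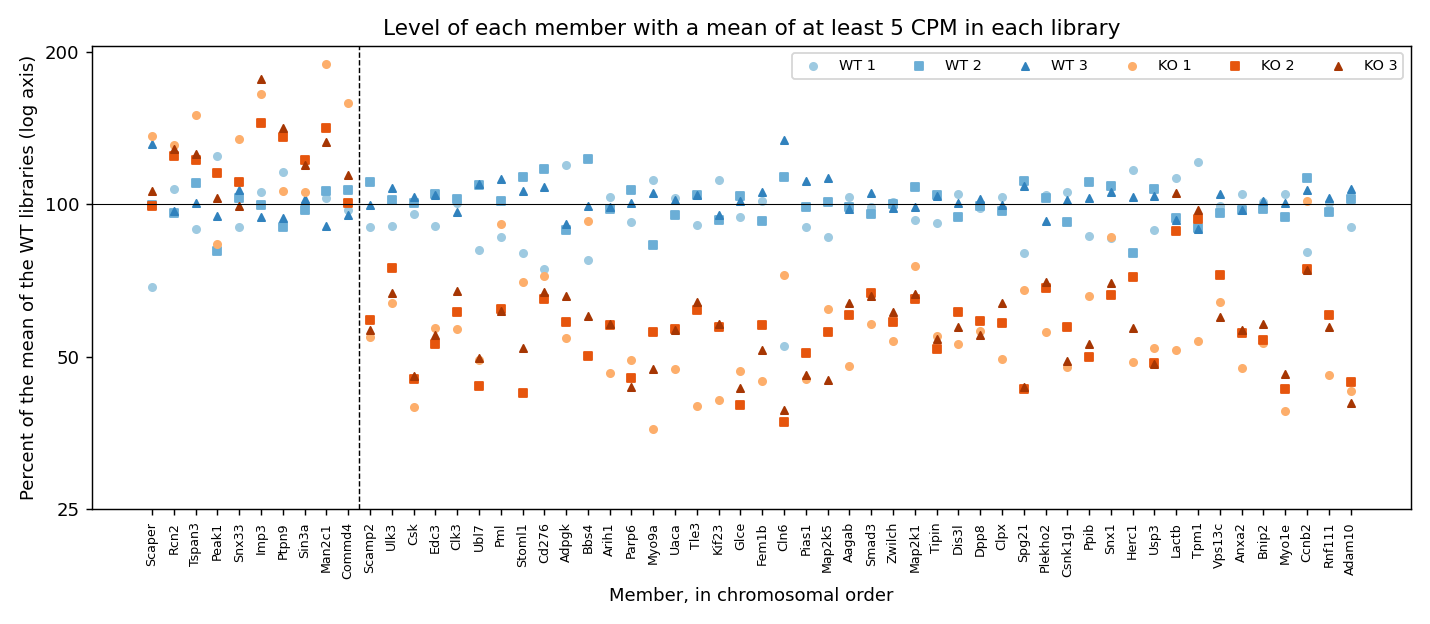
Level of the 56 members with a mean of at least 5 CPM in each of the 6 libraries, as percent of the mean of the 3 WT libraries (log axis), in chromosomal order; blue symbols are WT, orange symbols KO, and the dashed line is the step. KO symbols sit above or among WT symbols up to Commd4, and mostly between 40% and 70% from Scamp2 on.

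The listed members after the step were more alike than genes in general, but they were picked from this contrast, so their evenness is a description. For the 46 of them with a mean of at least 5 CPM, the interquartile range of the log2 fold changes was 0.30 and the SD 0.24, and the median SE of a single gene was 0.13. The same over all 10762 genes of at least 5 CPM was an interquartile range of 0.44 and an SD of 0.68. That SD includes sex-linked genes at the extremes, Xist at -10.8 and Ddx3y at 14.3. Within 0.3 of their median lay 34 of the 46 (73.9%), against 63.4% of all genes. Without WT 1 and KO 1 both spreads were wider: the interquartile range was 0.41 for the 46 and 0.66 for all genes, and 69.6% and 46.0% lay within 0.3 of their median. The range ran from -1.23 for Adam10 to -0.26 for Ccnb2. Over all 59 members the interquartile range was 0.47, since it spans the step. The 61 unlisted genes after the step with at least 5 CPM were less alike than the listed 46. Their interquartile range was 0.39 and their SD 0.58, and 62.3% lay within 0.3 of their median, near the share of all genes. Within single libraries (log2 CPM against the mean of the 6), the interquartile range over the 49 was 0.39 in KO 1, 0.24 in KO 2 and 0.22 in KO 3, and 0.29, 0.25 and 0.24 in the WT libraries. KO 1 was the least even of the 6.

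By position inside the lower run, the medians were -0.82 for 15 members from the step to 60 Mb, -0.89 for 16 from 60 to 65 Mb, -0.81 for 14 from 65 to 70 Mb and -1.05 for the 4 beyond 70 Mb. The 26 plus-strand members after the step had a median of -0.86 and the 23 minus-strand members one of -0.69. Across the 46 genes, which share the same libraries, the fold change had a Pearson r of 0.00 with mean level (rho -0.11), -0.31 with gene span (rho -0.26) and 0.08 with position (rho 0.05).

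Of the 10 members that encode kinases, phosphatases and signal transducers, the 8 after the step were all wholly lower in KO, with a median of -0.78. The share over all tested genes, 15.4% wholly lower, stands beside this count and those of the role groups below. Csk, the kinase that holds Src-family kinases inactive (57626646 to 57653631, minus strand), had 191, 201 and 206 CPM in WT against 79.5, 90.2 and 91.6 CPM in KO (libraries 1 to 3 in order, here and below). Every KO value lay below 92 CPM and every WT value above 190 CPM, a level of 43.6% of WT (199.6 ± 7.63 CPM in WT and 87.1 ± 6.63 in KO, SD, n = 3 each; log2 fold change -1.20, SE 0.11). Bnip2 had 242, 234 and 243 CPM in WT against 128, 129 and 139 CPM in KO. It was among the most even members (240.0 ± 4.83 CPM in WT and 132 ± 6.38 in KO; log2 fold change -0.86, SE 0.10). Smad3, which carries TGF-beta signals to the nucleus, had 142, 137 and 151 CPM in WT against 83.1, 95.7 and 94.3 CPM in KO, also without overlap (log2 fold change -0.65, SE 0.10). The mitogen-activated kinases' activators Map2k1 and Map2k5 were at -0.53 and -0.88, the autophagy-related kinase Ulk3 at -0.55, the splicing-factor kinase Clk3 at -0.69 and the casein kinase Csnk1g1 at -0.96. Before the step, the tyrosine phosphatase Ptpn9 had 92.6, 72.2 and 75.3 CPM in WT against 84.8, 109 and 113 CPM in KO. Its KO 1 value lay inside the WT range (log2 fold change 0.35, SE 0.16). Peak1, a pseudokinase of the cytoskeleton, had 101, 65.5 and 76.8 CPM in WT against 67.6, 93.5 and 83.5 CPM in KO, and its groups overlapped (log2 fold change 0.01, SE 0.19).

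Transcription, SUMO and ubiquitin proteins made up 13 members, 11 of them after the step with a median of -0.90, and 10 of those 11 were wholly lower. Arih1, a ubiquitin ligase that works with cullin ligases (59388258 to 59486618, minus strand), had 269.8, 255 and 258 CPM in WT against 121, 151 and 152 CPM in KO. The groups lay over 100 CPM apart (261 ± 7.66 CPM in WT and 141 ± 17.4 in KO, SD, n = 3 each; log2 fold change -0.89, SE 0.12). Parp6, an ADP-ribosyltransferase, had 23.8, 27.5 and 25.9 CPM in WT against 12.7, 11.7 and 11.2 CPM in KO, a level of 46.1% of WT (log2 fold change -1.12, SE 0.13). The SUMO ligase Pias1 was at -1.08, the ubiquitin ligases Rnf111 and Herc1 at -0.87 and -0.75, the histone deubiquitinase Usp3 at -1.01, and the ubiquitin-like protein Ubl7 at -1.07. The substrate adaptor Fem1b was at -0.96, the corepressor Tle3 at -0.85 and Uaca, an ankyrin-repeat protein, at -0.90. Pml, the organiser of PML nuclear bodies, had 92.2, 108 and 119.7 CPM in WT against 97.7, 66.4 and 65.7 CPM in KO. KO 1 lay inside the WT range and the other KO libraries below it (log2 fold change -0.48, SE 0.19). Before the step, Sin3a, the scaffold of a histone deacetylase complex, was at 0.21. Commd4, a COMM-domain protein that lies next to the step, had 25.1, 27.5 and 24.5 CPM in WT against 40.7, 25.8 and 29.3 CPM in KO, where KO 2 lay inside the WT range (log2 fold change 0.31, SE 0.19).

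The 4 members of cell division all lie after the step, with a median of -0.84. Kif23, a kinesin of the central spindle in cytokinesis (61915905 to 61946774, minus strand), had 279.9, 233 and 238 CPM in WT against 103, 143 and 145 CPM in KO. The highest KO value was well under the lowest WT value (250.2 ± 25.9 CPM in WT and 130.3 ± 24.0 in KO; log2 fold change -0.94, SE 0.17). Zwilch, a kinetochore protein of the spindle checkpoint, was at -0.79 and Tipin, a replication fork protein, at -0.90, both without overlap. Ccnb2, a mitotic B-type cyclin, had 121, 169.7 and 160.1 CPM in WT against 153, 112 and 112 CPM in KO, so that KO 1 lay above WT 1 (log2 fold change -0.26, SE 0.18). A pseudogene, Ccnb2-ps, is counted apart at 1.39 CPM, and reads of Ccnb2 may be split with it.

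In RNA handling, Edc3, a factor of mRNA decapping (57708540 to 57752499, plus strand), had 87.1, 101 and 100.1 CPM in WT against 54.7, 50.8 and 53.0 CPM in KO. Its groups did not overlap (log2 fold change -0.86, SE 0.10), but it overlaps Clk3 on the opposite strand, and whether strand was used in counting is not given in the sources used here. Adpgk and Bbs4 overlap each other in the same way, and 14 members in all overlap some tested gene. The exosome nuclease Dis3l was at -0.80. Imp3, a protein of ribosomal RNA processing that lies before the step (56937475 to 56938398, plus strand), had 20.4, 19.3 and 18.3 CPM in WT against 31.9, 28.0 and 34.2 CPM in KO. It was higher in every KO library than in any WT library (19.3 ± 1.07 CPM in WT and 31.3 ± 3.12 in KO; log2 fold change 0.70, SE 0.13).

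Membrane traffic had 8 members after the step, with a median of -0.71 and 6 wholly lower, and 3 before it. Spg21, an endosomal protein, had 139, 192 and 189 CPM in WT against 117, 74.9 and 75.6 CPM in KO. KO 1 stayed closer to WT than the other KO libraries did (log2 fold change -0.96, SE 0.22). Scamp2, a carrier membrane protein and the first member after the step, had 63.0, 77.3 and 69.6 CPM in WT against 38.3, 41.3 and 39.6 CPM in KO, a level of 56.8% of WT (log2 fold change -0.82, SE 0.11). The rest of these were the lipid transfer protein Vps13c at -0.61, the adaptor-binding protein Aagab at -0.80, the stomatin-like Stoml1 at -0.87, Plekho2 at -0.62, the retromer sorting nexin Snx1 at -0.43 and the ciliary BBSome subunit Bbs4 at -0.56. Before the step, Rcn2, a calcium-binding protein of the secretory pathway, had 103, 92.5 and 93.3 CPM in WT against 126, 120.2 and 124 CPM in KO. Each KO value exceeded each WT value (log2 fold change 0.36, SE 0.10). The sorting nexin Snx33 and the endoplasmic reticulum protein Scaper, also before the step, were at 0.20 and 0.19, with overlapping groups.

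Cytoskeleton, adhesion and cell-surface genes held the deepest and the least even members, with a median of -1.01 for the 8 after the step. Adam10, the sheddase that cuts Notch and cadherins (70678997 to 70780229, plus strand), had 332, 378 and 395 CPM in WT against 157, 164 and 149 CPM in KO. Its KO libraries lay within 16 CPM of each other and over 160 CPM below any WT library (368 ± 32.5 CPM in WT and 157 ± 7.58 in KO, SD, n = 3 each; log2 fold change -1.23, SE 0.11). Anxa2, a calcium-dependent membrane-binding annexin, had 1812, 1683 and 1683 CPM in WT against 819.8, 962 and 976 CPM in KO. It was at 53.3% of WT, without overlap (log2 fold change -0.91, SE 0.12). The unconventional myosins Myo1e and Myo9a were at -1.22 and -1.11, the immune ligand Cd276 at -0.55, and, before the step, the tetraspanin Tspan3 at 0.41. Tpm1, an actin-filament tropomyosin, had 2664, 1972 and 1967 CPM in WT against 1183, 2063 and 2143 CPM in KO. Only KO 1 was below the WT range, so its groups overlapped (2201 ± 401 CPM in WT and 1796 ± 533 in KO; log2 fold change -0.29, SE 0.26). Itga11, a collagen-binding integrin, had 57, 287 and 290 counts in the WT libraries against 54, 29 and 15 in those of KO, so WT 1 lay near KO 1 and KO was lower without overlap (log2 fold change -2.56, SE 0.68). Islr, a leucine-rich repeat protein of mesenchyme, had 0, 91 and 72 counts in WT and 252, 7 and 13 in KO. KO 1 alone was high (log2 fold change 0.90, SE 1.62 in all libraries), and the sign was negative when KO 1 was left out.

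Among mitochondrial, lysosomal, endoplasmic reticulum and metabolic proteins, 7 lie after the step with a median of -0.82, and 5 of these were wholly lower. Glce, the epimerase of heparan sulfate synthesis (62057248 to 62122655, minus strand), had 105, 115 and 112 CPM in WT against 51.9, 44.4 and 48.0 CPM in KO. The groups were more than 50 CPM apart (111 ± 5.28 CPM in WT and 48.1 ± 3.72 in KO; log2 fold change -1.20, SE 0.10). Ppib, a prolyl isomerase of the endoplasmic reticulum that acts on collagen, had 381, 487 and 454 CPM in WT against 291, 220.2 and 234 CPM in KO, with no overlap (log2 fold change -0.83, SE 0.16). Dpp8, a cytosolic dipeptidyl peptidase, had 179.6, 181 and 187 CPM in WT against 103, 107 and 101 CPM in KO, with the smallest spread of the members (log2 fold change -0.82, SE 0.09). The mitochondrial unfoldase Clpx was at -0.81 and the glucokinase Adpgk at -0.75. Before the step, Man2c1, a cytosolic mannosidase, had 21.0, 21.7 and 18.5 CPM in WT against 38.6, 28.9 and 27.0 CPM in KO. It was higher in all KO libraries and highest in KO 1 (log2 fold change 0.63, SE 0.17).

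**Figure D3:**
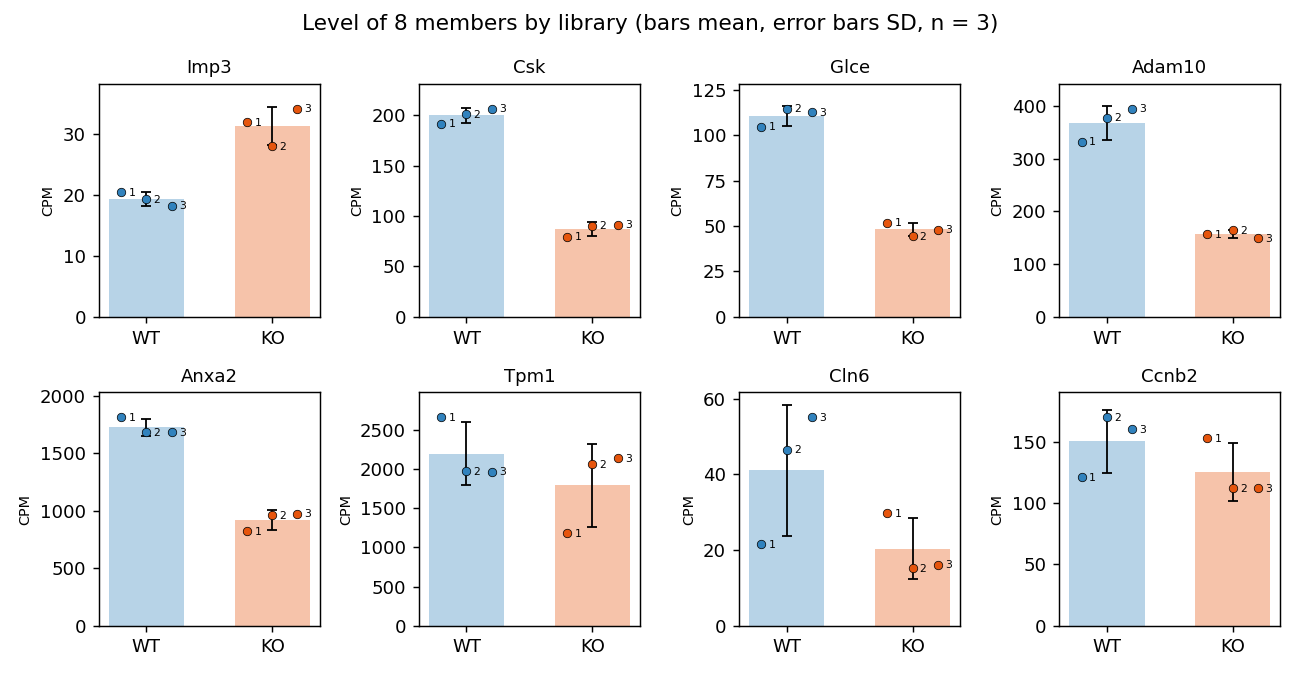
CPM of 8 members in each library (points, numbered by library), with the mean (bars) and SD (error bars) of the 3 WT and 3 KO libraries. Imp3 lies before the step and is higher in KO; Csk, Glce, Adam10 and Anxa2 lie after it and are lower without overlap; in Tpm1, Cln6 and Ccnb2 library 1 of a group lies far from the other 2 and the groups overlap.

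Most overlaps between the groups after the step were gone without WT 1 and KO 1, where fewer libraries also make separation easier. After the step 9 members had overlapping groups (Islr, Pml, Bbs4, Larp6, Cln6, Snx1, Lactb, Tpm1 and Ccnb2). Without WT 1 and KO 1, 47 of 49 were wholly lower, against 37.5% of all tested genes. Lactb still overlapped, and Tpm1 was wholly higher, as were 37.1% of all tested genes. Cln6, a lysosomal-disease protein of the endoplasmic reticulum, had 21.5, 46.5 and 55.04 CPM in WT against 29.8, 15.2 and 16.1 CPM in KO. Its log2 ratio was 0.47 for KO 1 over WT 1 and -1.69 for the other libraries. Lactb, a mitochondrial serine protease-like protein, had 34.9, 29.1 and 28.7 CPM in WT against 15.96, 27.4 and 32.5 CPM in KO, and went the other way, with -1.12 in libraries 1 and 0.05 in the others. Tpm1 did likewise, at -1.17 and 0.09. Larp6, an RNA-binding protein of collagen mRNAs, had 0.971, 3.47 and 4.22 CPM in WT against 3.54, 1.10 and 1.17 CPM in KO, with ratios of 1.77 and -1.67. Ratios also differed by more than 1 between libraries 1 and the others for Bbs4 (0.25 and -0.997), Stoml1 (-0.19 and -1.21), Spg21 (-0.24 and -1.34), Itga11 (-0.17 and -3.35), Islr (6.05 and -2.41) and, before the step, Scaper (0.98 and -0.17). The signs were opposite, by less, for Pml (0.08 and -0.79), Ccnb2 (0.34 and -0.56), Snx1 (0.01 and -0.65), Peak1 (-0.58 and 0.32) and Ptpn9 (-0.13 and 0.59), and Snx33 was at 0.57 in libraries 1 and near 0 in the others. What separates WT 1 and KO 1 from the rest is not in the labels, and its part in these overlaps was not tested. Across replicates of a group the members after the step of at least 5 CPM varied less than genes in general. Their median SD of log2 CPM was 0.12 in WT and 0.14 in KO, against 0.18 and 0.21 over all genes of at least 5 CPM. The members before the step were at 0.12 and 0.22. The sets compared were not matched for level.

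The other genes of the stretch showed the same step. Of 69 that are not members and have a mean of at least 5 CPM, 8 lie before it, with a median of 0.40 and 8 above 0. The 61 after it had a median of -0.89 and an interquartile range of 0.39, with 57 below 0 and 52 wholly lower. Over all genes of at least 5 CPM, 53.6% were below 0 and 18.3% wholly lower. By log2 fold change, the lowest were Prtg (-2.48), Sema7a (-2.18), a membrane-anchored semaphorin, and the kinase Dapk2 (-1.82). The highest were Tln2 (1.19), a talin that links integrins to actin, the proteoglycan Cspg4 (1.15) and Snupn (0.48), an import adaptor of small nuclear ribonucleoproteins. Tln2 had 21.0, 12.0 and 15.3 CPM in WT against 25.9, 46.4 and 37.8 CPM in KO, so it ran against its neighbours within the lower run.

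The 2 ends of the stretch differ. Pseudogenes and unnamed gene models were left out of the genes named at the edges, among them Rab7-ps1 (-0.27) before the start and Gm2981 (-0.05) past the end. Just outside the start, at 55 Mb, Crabp1, Ireb2, Hykk and Psma4 were at 1.96, 0.35, 0.25 and 0.53, and just inside it Ube2q2, Fbxo22, Etfa and Scaper were at 0.37, 0.46, 0.43 and 0.19. The higher level before the step therefore began outside the stretch: the 226 genes of chromosome 9 ahead of the step had a median of 0.36, and 206 were above 0. Just inside the end, Pigb, Rab27a, Rsl24d1 and Fam214a were at -1.15, -0.51, -0.64 and -0.94. Past 75 Mb, Arpp19, Myo5a, Gnb5 and Mapk6 were at -0.77, -0.95, -0.24 and -0.38. Around the far edge the median went from -0.88 in the bin from 70 to 75 Mb to -0.41 in that from 75 to 80 Mb, and it was -0.18 over the 259 genes beyond the stretch. A second step was not searched for.

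Beside other stretches of the same length, the size of the shift stood apart more than its evenness did. Of 116 other 20 Mb stretches of the autosomes with at least 30 genes, the medians ran from -0.31 to 0.37, both ends on chromosome 9, against -0.81 for the 125 genes from 55 to 75 Mb. Their interquartile ranges ran from 0.21 to 0.71 with a median of 0.36. The whole stretch, at 0.47, was less even than 105 of them, while the 46 members after the step, at 0.30, were less even than 22. Of 356 autosomal bins of 5 Mb with at least 10 genes, 4 had a median under -0.5, and 4 of those 4 make up this stretch. As the stretch was picked for its shift, its rank is a description.

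**Figure D4:**
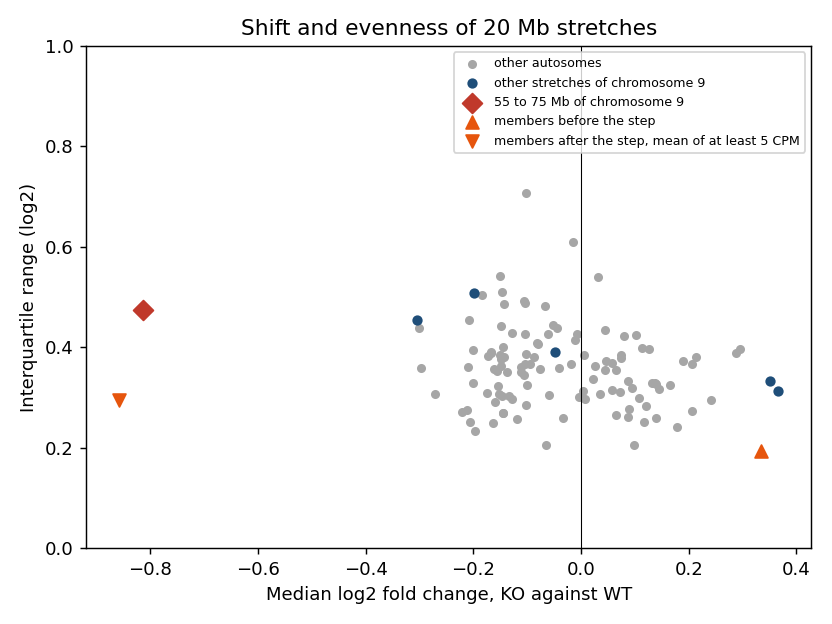
Median log2 fold change (x axis) and interquartile range (y axis) of the genes in 20 Mb stretches of the autosomes, with the members before and after the step shown as triangles. The stretch from 55 to 75 Mb (diamond) lies at -0.81, left of the other 116, while its interquartile range is inside theirs.

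Genes related to the members but placed elsewhere were set beside them. These relatives lie outside the stretch, but they too were chosen with earlier results of these data known. Of 77 paralogs and partners of members, 1 (Parp16) lies in the stretch and was left out, and 74 were tested, related to 40 members. Their median log2 fold change was -0.19, with an interquartile range of 0.43, against 0.01 over all tested genes. In edgeR 3 of the 74 (4.05%) passed an adjusted p of 0.05 over all genes, against 7.4% of all tested genes, while 23 (31.1%) had an unadjusted p under 0.05, against 22.2% of all tested genes. Anxa1, a relative of Anxa2, had 440.1, 485 and 508 CPM in WT against 361, 292 and 286 CPM in KO and fell in KO (log2 fold change -0.61, SE 0.13, edgeR adjusted p = 0.0426). Lactb2, a relative of Lactb, had 23.2, 24.3 and 22.3 CPM in WT against 35.8, 35 and 33.7 CPM in KO and rose (log2 fold change 0.58, SE 0.11, edgeR adjusted p = 0.0246). None of the 3 kept its call when WT 2, WT 3, KO 2 or KO 3 was left out, in edgeR, with 12 to 15 relatives (16.2% to 20.3%) then at an unadjusted p under 0.05, against 15.1% to 17.1% of all genes. Without WT 1 and KO 1 together edgeR called 51 of the relatives (68.9%), against 48.0% of all genes in that fit.

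Set against their own members, 64 of 66 relatives of members after the step had a higher log2 fold change than the member, apart from Plekho1 (-0.92) beside Plekho2 and Tpm4 (-0.34) beside Tpm1. Of the relatives of members before the step, 8 of 8 were below theirs. The members' own values were what chose them, so this comparison is not a test. Among pairs, Csk at -1.20 stood beside Matk at 0.91 (SE 0.34), but Matk had a mean of only 1.93 CPM. Adam10 at -1.23 stood beside Adam9 at -0.30 and Adam17 at -0.11, and Smad3 at -0.65 beside Smad2 at -0.31 and Smad4 at -0.37. Some relatives came closer to their member: Pias1 at -1.08 stood beside Pias3 at -0.86, with Pias2 and Pias4 at -0.29 and -0.33.

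**Figure D5:**
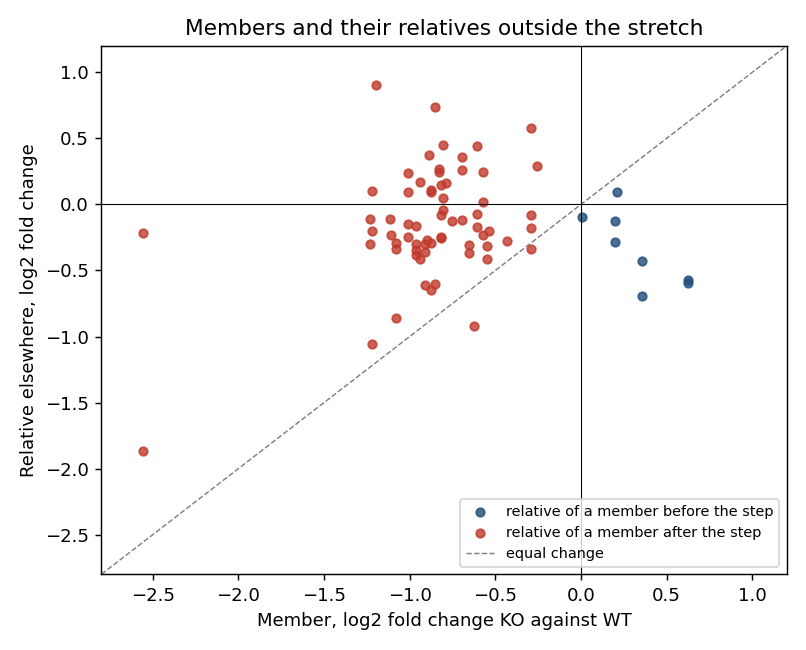
Log2 fold change of each of the 74 tested relatives (y axis) against that of its member (x axis), red for members after the step and blue for members before it; the dashed line marks equal change. Red points lie above the line apart from 2 of 66, and 8 of 8 blue points lie below it.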

How the data were processed

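The authors deposited raw read counts per gene symbol, 1 file for each of the 6 libraries, made with a directional kit per the labels' protocols. The submitters' processing notes list Trim Galore 0.6.6, HISAT2 2.2.1 and a human build. No counter, strand setting or annotation is given in the sources used here. Positions come from GENCODE M21 (GRCm38), where 92.7% of symbols had 1 position, and promoters from RefSeq.

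Counts were fitted in edgeR 4.0.16 (R 4.3.3, filterByExpr, TMM, robust quasi-likelihood, Benjamini-Hochberg over 15223 genes, threshold 0.05). The fit was also run on simulated counts. These were drawn independently for each library, without the shared departures of WT 1 and KO 1, so that run cannot show how such departures affect the calls. CPM use TMM factors, and log2 CPM a prior count of 2. The SE is the log2 fold change over the square root of F. The step is the split with the smallest summed absolute deviation from 2 medians. Ratios for libraries 1 and the others use CPM plus 0.1. Floors cover counting error only.

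The members, role groups, relatives and markers were chosen with earlier results of these data known. Values in every library are given by rule for the highest CPM and the lowest and highest log2 fold change of each role group, the 3 lowest and 3 highest unlisted genes (log2 fold changes), 4 genes at either edge and called relatives. A gene that this rule names is not reported here. Other genes with values by library (Adam10, Anxa2, Cln6, Dpp8, Lactb, Larp6, Peak1, Pml, Scamp2, Smad3, Tln2) were picked once values were known. Alternatives were other scalings, filters, DESeq2 1.42.0, limma-voom (limma 3.58.1), a block on replicate number, omission of single libraries and, chosen after seeing the data, leaving out WT 1 with KO 1, scaling without chromosome 9 and the division at the step.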

Additional observations from a re-analysis of the deposited data

How the results depend on the processing

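Apart from DESeq2 and limma-voom, whose medians over the members were not taken, the members' median stayed between -0.74 and -0.84 under every alternative run. The median before the step stayed between 0.29 and 0.40, and that after it between -0.79 and -0.86, with an interquartile range of 0.28 to 0.46. Upper-quartile factors or library sizes alone gave -0.74 over all members. The interquartile range over all members was 0.27 for those between 60 and 70 Mb and 0.41 to 0.58 with 1 library left out. The lowest bin of the profile was at -0.90 (60 to 65 Mb, 24 genes). In bins of 2.5 Mb the lowest lay elsewhere, at -1.04 (72.5 to 75 Mb, 8 genes). Of 59 members 6 changed sign under some alternative (Islr, Lactb, Peak1, Scaper, Snx33 and Tpm1). Counts of calls moved more. edgeR called 1127 genes (540 higher, 587 lower) and 3 relatives. DESeq2 called 2406 and 12. Leaving out 1 library gave 332 to 1216 genes and 0 to 5 relatives; without WT 2, WT 3, KO 2 or KO 3 the counts were 385, 332, 375 and 359. Without WT 1 and KO 1 together they were 7408 and 51. With the replicate number as a block edgeR called 8 genes and 0 relatives (5, or 6.76%, at an unadjusted p under 0.05, against 12.1% of all genes). The labels do not say that a number pairs libraries, and the deviations of same-numbered libraries correlated at -0.73, -0.57 and -0.59, so the numbers were not taken as pairs. Of the called relatives, Anxa1 was also lost under upper-quartile factors, library sizes alone, no filter, a minimum mean of 5 CPM and without WT 1. Depth limits Islr, Larp6 and Itga11, which had under 5 CPM.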

Other observations

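Whole chromosomes other than chromosome 9 were shifted by less than the stretch from 55 to 75 Mb. Over genes that averaged 5 CPM or more, the median was lowest on chromosome 12 (-0.24 over 368 genes, 80.4% below 0) and highest on chromosome 19 (0.26 over 378 genes, 17.2% below 0). Against the mean of the 6 libraries, the median of chromosome 12 was 0.13, 0.11 and 0.14 in the WT libraries against -0.17, -0.08 and -0.10 in those of KO, which did not overlap. That of chromosome 19 was -0.09, -0.11 and -0.13 in WT and 0.05, 0.16 and 0.16 in KO. Chromosome 9 as a whole had a median of -0.02 with an interquartile range of 0.83, the widest of the 19 autosomes. These chromosomes were named after their values were seen.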
